A study of Drosophila melanogaster with 2 samples.

Results

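The 8 genes described here form the core of the fly cell death pathway that the steroid hormone ecdysone switches on when larval tissues are removed: rpr, hid, grim, skl, Diap1, Dronc, Drice and Dark. They are 8 of the 13945 protein-coding genes of the annotation. Each gene was given a window of its body plus 10 kb on each side, and every summit of Ftz-F1 chromatin immunoprecipitation sequencing (ChIP-seq) inside that window was taken. Ftz-F1 is a nuclear receptor. The sample was whole Drosophila melanogaster embryos of pooled sexes, 0 to 24 hours old, from a transgenic line that carries Ftz-F1 with GFP at its C-terminal end, and the chromatin was precipitated through the GFP tag. There was 1 group of 2 biological replicates, numbered 1 and 4, with no second condition, so nothing here is a response to ecdysone or a difference between treatments. The labels do not say whether the replicates came from separate fly cultures.

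In flies, ecdysone bound to its receptor induces Reaper (rpr) and Hid, and these proteins, with Grim and Sickle (skl), bind the inhibitor of apoptosis Diap1. Diap1 otherwise holds the initiator caspase Dronc in check. Dronc released from Diap1 assembles on the adaptor Dark into the apoptosome and cleaves the effector caspase Drice, which dismantles the cell. Ftz-F1 is known in prepupae as the factor that makes tissues competent to respond to a later ecdysone pulse, among them the salivary glands, whose death uses rpr and hid. Embryos are an earlier stage, where rpr, hid and grim serve developmental cell death. A whole embryo mixes all cell types, so a summit says that Ftz-F1 was found at a place in some cells, not in which.

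The deposited list that passed the authors' irreproducible discovery rate (IDR) procedure, which compares peak ranks between replicates, placed 14 summits in the 8 windows. Of the 8 genes, 5 held at least 1. Peaks in that list can still differ in rank between the replicates. In the whole annotation, 58.2% of protein-coding genes had at least 1 in such a window, as did 61.3% of those whose windows are as long as these (20901 to 37897 bp). The members' share therefore lay near the background. The genes differed among themselves. Diap1 held 5 IDR summits, Drice and Dark 3 each, Dronc 2 and grim 1, whereas rpr, hid and skl held none. The members' median was 1.5 IDR summits per window and that of all genes 1.0. The 14 summits had signal values, the authors' own measure of peak height on a scale not given in the sources used here, of 92.7 to 187, with a median of 138. All IDR peaks ran from 91.8 to 3557 with a median of 131, so the cell death genes carried middling peaks and none of the strongest. Each of the 14 had the same rank by signal value in the IDR list as in the pooled list of both libraries. Down to the lowest of them, rank 3890, the IDR list thus held every pooled peak of higher signal value. Entry there followed the pooled signal value, so it does not show that the replicates ranked a given peak alike.

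**Figure D1:**
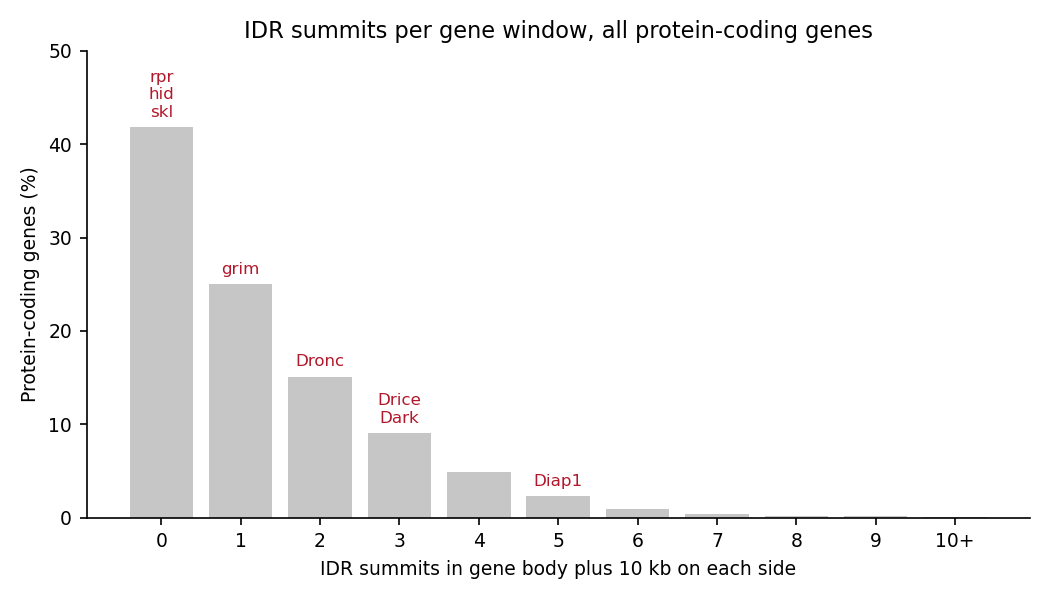
Percent of all 13945 protein-coding genes (vertical axis) by the number of IDR summits in the gene body plus 10 kb on each side (horizontal axis, the last bar pooling 10 or more). The names mark where the 8 cell death genes fall: rpr, hid and skl at 0, and Diap1 at 5.

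The sequences under the summits show how different these places were. They are release 6 (dm6) sequence, printed 5′ to 3′ along the strand of the gene. At grim the 201 bases centred on its IDR summit are shown (chr3L:18305891-18306091, minus strand), because 3 copies of the Ftz-F1 site lie in them. That site was searched on both strands as C or T, then CAAGG, then C or T, then C, then A or G, and its matches are in capitals.
grim summit: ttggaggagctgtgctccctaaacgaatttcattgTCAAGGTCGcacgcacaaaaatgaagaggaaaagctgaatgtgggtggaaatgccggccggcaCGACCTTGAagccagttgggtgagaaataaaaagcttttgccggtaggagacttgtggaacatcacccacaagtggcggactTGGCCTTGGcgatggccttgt
At Diap1 both starts that carried an IDR summit are shown, from 200 bases before the start to 20 after it. Capitals in the outer start (chr3L:16051015-16051234, minus strand) mark TATCGATA, the element of the promoter factor DREF, and GGTCACACT on the other strand, the element of the promoter factor M1BP. Capitals in the inner start (chr3L:16046827-16047046, minus strand) mark GAGAGA, the element of GAGA factor, on either strand.
Diap1 outer start: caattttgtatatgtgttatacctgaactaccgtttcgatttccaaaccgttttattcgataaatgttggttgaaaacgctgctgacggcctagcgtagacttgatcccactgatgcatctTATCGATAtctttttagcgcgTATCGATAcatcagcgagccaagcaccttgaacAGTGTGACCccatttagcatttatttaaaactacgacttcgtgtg
Diap1 inner start: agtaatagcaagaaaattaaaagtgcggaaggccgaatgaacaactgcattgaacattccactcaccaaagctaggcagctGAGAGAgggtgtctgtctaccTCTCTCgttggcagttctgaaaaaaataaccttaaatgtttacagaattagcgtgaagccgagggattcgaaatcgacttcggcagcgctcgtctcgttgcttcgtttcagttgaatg
At Dronc the sequence begins 160 bases before the start (chr3L:9968319-9968498, plus strand) and its summit lies 2 bp before the start. None of the sequences searched for occurred in it.
Dronc start: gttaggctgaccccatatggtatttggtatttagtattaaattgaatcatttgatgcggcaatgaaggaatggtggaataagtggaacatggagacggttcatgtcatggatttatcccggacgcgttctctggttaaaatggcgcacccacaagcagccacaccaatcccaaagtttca
The start of rpr (chr3L:18398416-18398635, minus strand) is shown as a start whose peak was listed but did not enter the IDR list, with GAGAGA in capitals.
rpr start: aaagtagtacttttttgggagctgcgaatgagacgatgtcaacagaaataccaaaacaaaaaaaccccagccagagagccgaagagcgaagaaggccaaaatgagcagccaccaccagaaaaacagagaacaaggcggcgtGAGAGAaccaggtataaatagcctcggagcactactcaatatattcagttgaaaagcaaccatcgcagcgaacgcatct

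The genes whose products disarm Diap1 came first. The 4 of them lie in 1 cluster on arm 3L, all on the minus strand: hid (FBgn0003997, 3L 18167745 to 18185641), grim (FBgn0015946, 18302719 to 18304417), rpr (FBgn0011706, 18397535 to 18398435) and skl (FBgn0036786, 18438561 to 18439942). Only grim among them held an IDR summit. It lay at position 18305991, in intergenic sequence 1574 bp upstream of the grim start, with no start of another gene nearer than the 2560 bp to asRNA:CR45974. Its signal value was 161 and its rank in the pooled list, in which the peaks of both libraries were called together, was 1291 of 29999. The pooled list is an input list for IDR and holds background regions as well as peaks, so its weak summits need not be binding sites. Replicate 1 listed a summit 37 bp away at 89.9, rank 1055, and replicate 4 a summit 11 bp away at 72.0, rank 1942. Both replicates thus placed it high in their own lists. No other pooled summit lay in the grim window, and no pooled summit lay within 500 bp of the grim start, where 57.8% of protein-coding genes had one.

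The grim summit was also where the Ftz-F1 site was found. A copy of TCAAGGTCG was centred 2 bp from the summit, a copy of TCAAGGTCG on the other strand 61 bp away and a copy of CCAAGGCCA 84 bp away, all of them in capitals in the sequence above, and another TCAAGGTCG stood 184 bp away. Among all IDR summits, 6.54% had at least 1 such site within 100 bp, 0.758% had a site centred within 5 bp, and 3 summits (0.0758%) had 3 or more within 100 bp. The counts for 3 or more sites and for 5 bp were made after the grim sites had been seen. None of the other IDR summits near the cell death genes had the site within 100 bp. Across the grim window the density was 1.84 sites per 10 kb, beside 0.515 over all arms (6878 sites). The grim density comes from these same 4 sites, and its window held no other. A match describes the letters and was not tested for binding.

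**Figure D2:**
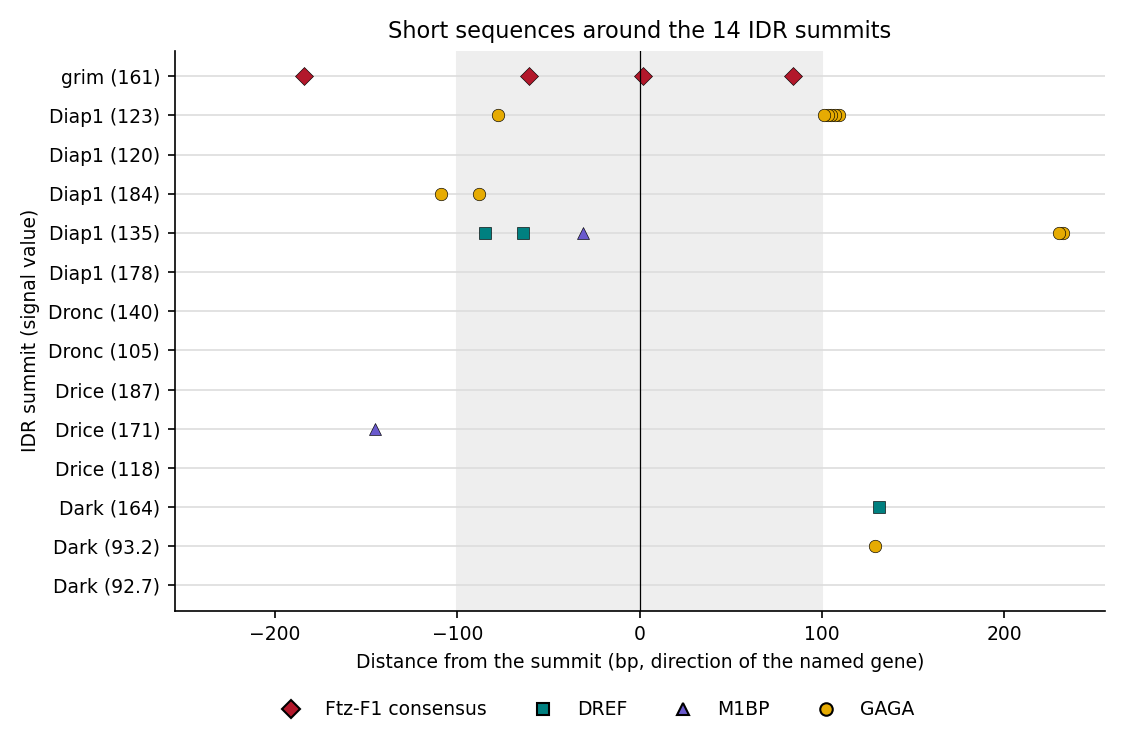
Positions of 4 short sequences around the 14 IDR summits (rows, with the signal value), as distance from the summit in bp along the named gene. The grey band is the 100 bp searched on each side. Ftz-F1 sites (diamonds) appear at grim, at 3 places in the band and 1 outside it, and no other row holds a diamond.

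Reaper had a weaker peak directly at its promoter. The strongest of its 3 pooled summits stood 64 bp upstream of the start with a signal value of 57.2, rank 8300, below the lowest IDR signal value of 91.8. Replicate 1 placed it 54 bp upstream (34.7, rank 7046) and replicate 4 placed it 175 bp upstream (24.2, rank 11440). A start summit at least as strong in the pooled list was found at 33.5% of protein-coding genes, so this level is common. The others stood 1902 and 4956 bp upstream, at 23.9 and 39.9. The GAGAGA in the printed start lies 8 bp from the pooled summit, and no Ftz-F1 site occurred anywhere in the rpr window.

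Hid, the longest of the 4 genes, held 14 pooled summits, and none entered the IDR list. The 14 reach down to a signal value of 20.8, rank 26587, and may include background regions. The strongest lay 312 bp upstream of the start at 81.6, rank 4821, below the IDR list. The replicates ranked it differently: 3436 in replicate 1 (52.0) and 13290 for the nearest summit in replicate 4 (21.6), which also listed a summit 175 bp upstream at 27.5, rank 9663. Inside the gene the highest pooled summits were 61.7 in a coding exon, 12439 bp from the start, and 58.5 in an intron, 10342 bp from it. The intronic summit ranked 15940 in replicate 1 and 4967 in replicate 4, the reverse order of the promoter summit. Among the strongest peaks of replicate 1 alone, as many as the IDR list holds, hid had 1 summit, that upstream of its start, and among those of replicate 4 alone it had 0. No Ftz-F1 site occurred in the 37897 bp of the hid window.

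Sickle had no summit in the pooled list. The nearest pooled summit lay outside its window, and replicate 1 alone listed a summit, 581 bp upstream of the start at 11.3, rank 26982 of 30000 entries. Such input lists hold background regions as well as peaks, per the deposited file descriptions, and this entry is close to their end. The start nearest that summit is that of lncRNA:CR43280, 207 bp away. A Ftz-F1 site, TCAAGGTCA, stands at 18440553 to 18440561, also upstream of the start, and a TCAAGGTCG lies 3233 bp on the other side of the start. A gene without a peak is only a gene without a listed peak, since the lists hold no read counts.

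From the hid to the skl gene the cluster spans 272198 bp with 8 protein-coding genes. It held 1 IDR summit, that of grim, or 0.367 per 100 kb, beside 2.96 per 100 kb over all arms. It held 29 pooled summits, or 10.7 per 100 kb, beside 22.4 over all arms. These rates are per base, and protein-coding genes are sparser in the cluster than over all arms (13945 in 133647856 bp). The parts of the cluster that no gene window reaches contained 13 pooled summits and no IDR summit. The highest of these was 48.8, rank 10237, nearest to CG7320, and several lay near the long non-coding RNA genes lncRNA:CR45935, lncRNA:CR45936 and lncRNA:CR45937. The pooled summits were unevenly placed: the hid window held 3.69 per 10 kb and the skl window none. The grim summit was the highest of the 29.

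**Figure D3:**
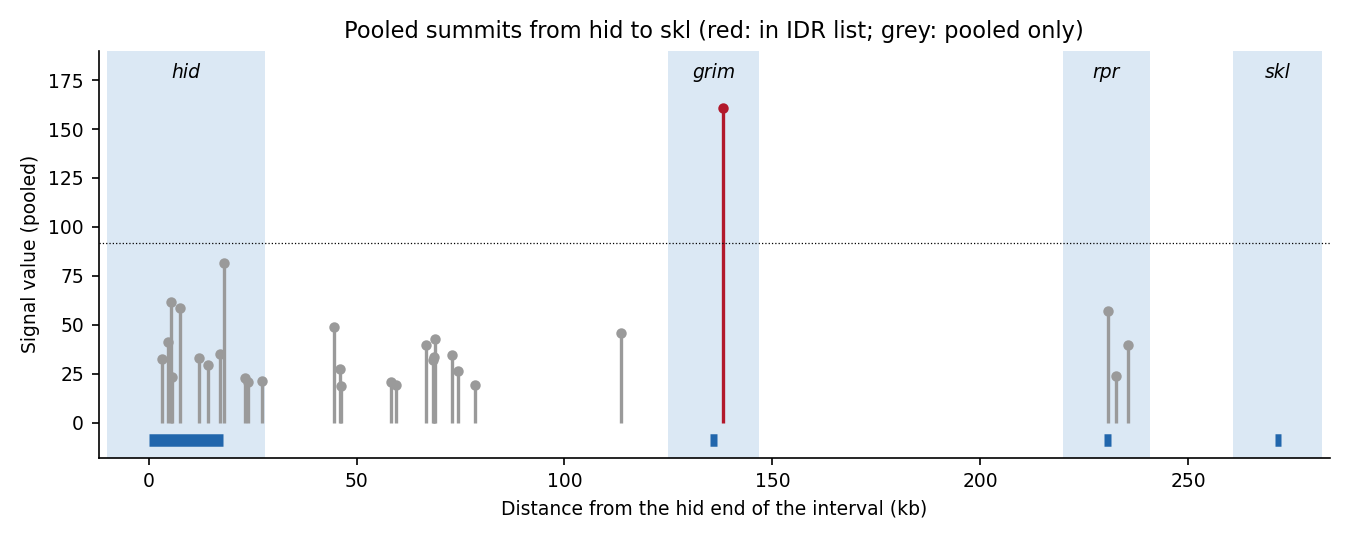
Signal values of the pooled summits (vertical axis) along the cluster from hid to skl (horizontal axis, kb from the hid end). Blue bars are the 4 genes, drawn at least 1.5 kb wide, the shaded spans their windows, and the dotted line the lowest IDR signal value of 91.8. The grim summit at 161 is in the IDR list and the others are below the line.

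Diap1 (FBgn0260635, 3L 16038410 to 16051034, minus strand), the caspase inhibitor that the 4 proteins bind, carried the most Ftz-F1 summits of the 8 genes. Its 5 IDR summits were matched or exceeded by 4.14% of protein-coding genes, and its 28 pooled summits by 1.39%. These shares were not matched for window length, which was 32625 bp for Diap1 and 22166 bp in the median of all genes. The 28 pooled summits reach down to a signal value of 18.4, rank 29722. They may include background regions, and some of their peaks overlap. With a flank of 5 kb in place of 10 kb Diap1 held 3 IDR summits. The gene has 5 annotated starts, and the IDR summits sat on a pair of them. At an inner start, 16046846, the summit lay 7 bp upstream with a signal value of 184, rank 985. It ranked 625 in replicate 1 (113) and 1815 in replicate 4 (74.7). At the outermost start, 16051034, the summit lay 10 bp into the 5′ UTR at 135, rank 1862, and ranked 1479 in replicate 1 (77.4) and 3814 in replicate 4 (49.5). Replicate 4 also listed a stronger summit further into this promoter region, 16050789, at 69.3, rank 2092, lying 118 bp upstream of a neighbouring Diap1 start at 16050671. In both replicates the inner start at 16046846 held the higher rank.

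The start at 16050671 lies within 500 bp of the same outer summit. At the starts 16042570 and 16040535 the pooled summits were 40.9 (123 bp away) and 28.4 (4 bp away), and the second of these had no partner within 200 bp in replicate 1. An own-start summit as strong as 184 was found at 5.09% of protein-coding genes. The other 3 IDR summits in the window were each nearer to another gene: 178, rank 1048, in an intron of Mbs, which encodes the myosin-binding subunit of myosin phosphatase, 5656 bp upstream of Diap1 and 4731 bp from an Mbs start; 120 in intergenic sequence, 1574 bp from the CG5895 start; and 123 in an intron of Notum, which encodes a secreted Wnt inhibitor, 2343 bp from mir-4941. They ranked 834, 3328 and 3743 in replicate 1 and 1774, 1911 and 1878 in replicate 4. The summit in Mbs was thus high in both replicates, and the other pair stood higher in replicate 4.

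The letters under the Diap1 starts were those of common promoter elements and not of the Ftz-F1 site. The outer start had 2 copies of TATCGATA, 64 and 85 bp from the summit, and 1 of GGTCACACT 31 bp away. TATCGATA occurred within 100 bp of 3.79% of all IDR summits and GGTCACACT at 3.43%. In promoters of the printed length, 200 bp before to 20 bp after the outermost start, 8.29% of protein-coding genes had TATCGATA, 4.50% had GGTCACACT and 0.495% had both. At the inner start GAGAGA lay 88 bp from the summit, a sequence within 100 bp of 15.7% of IDR summits and in 9.89% of those promoters. A Ftz-F1 site, TCAAGGTCA, stood upstream of the outer start in an Mbs intron (16054433 to 16054441), 30 bp from a weak pooled summit of 29.2, rank 18682. Replicate 4 listed that summit at rank 14699, and replicate 1 listed none within 200 bp. The receptor core AGGTCA, at 11.1% of IDR summits, and the longer CAAGGTCA, at 4.02%, were at none of the 14.

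**Figure D4:**
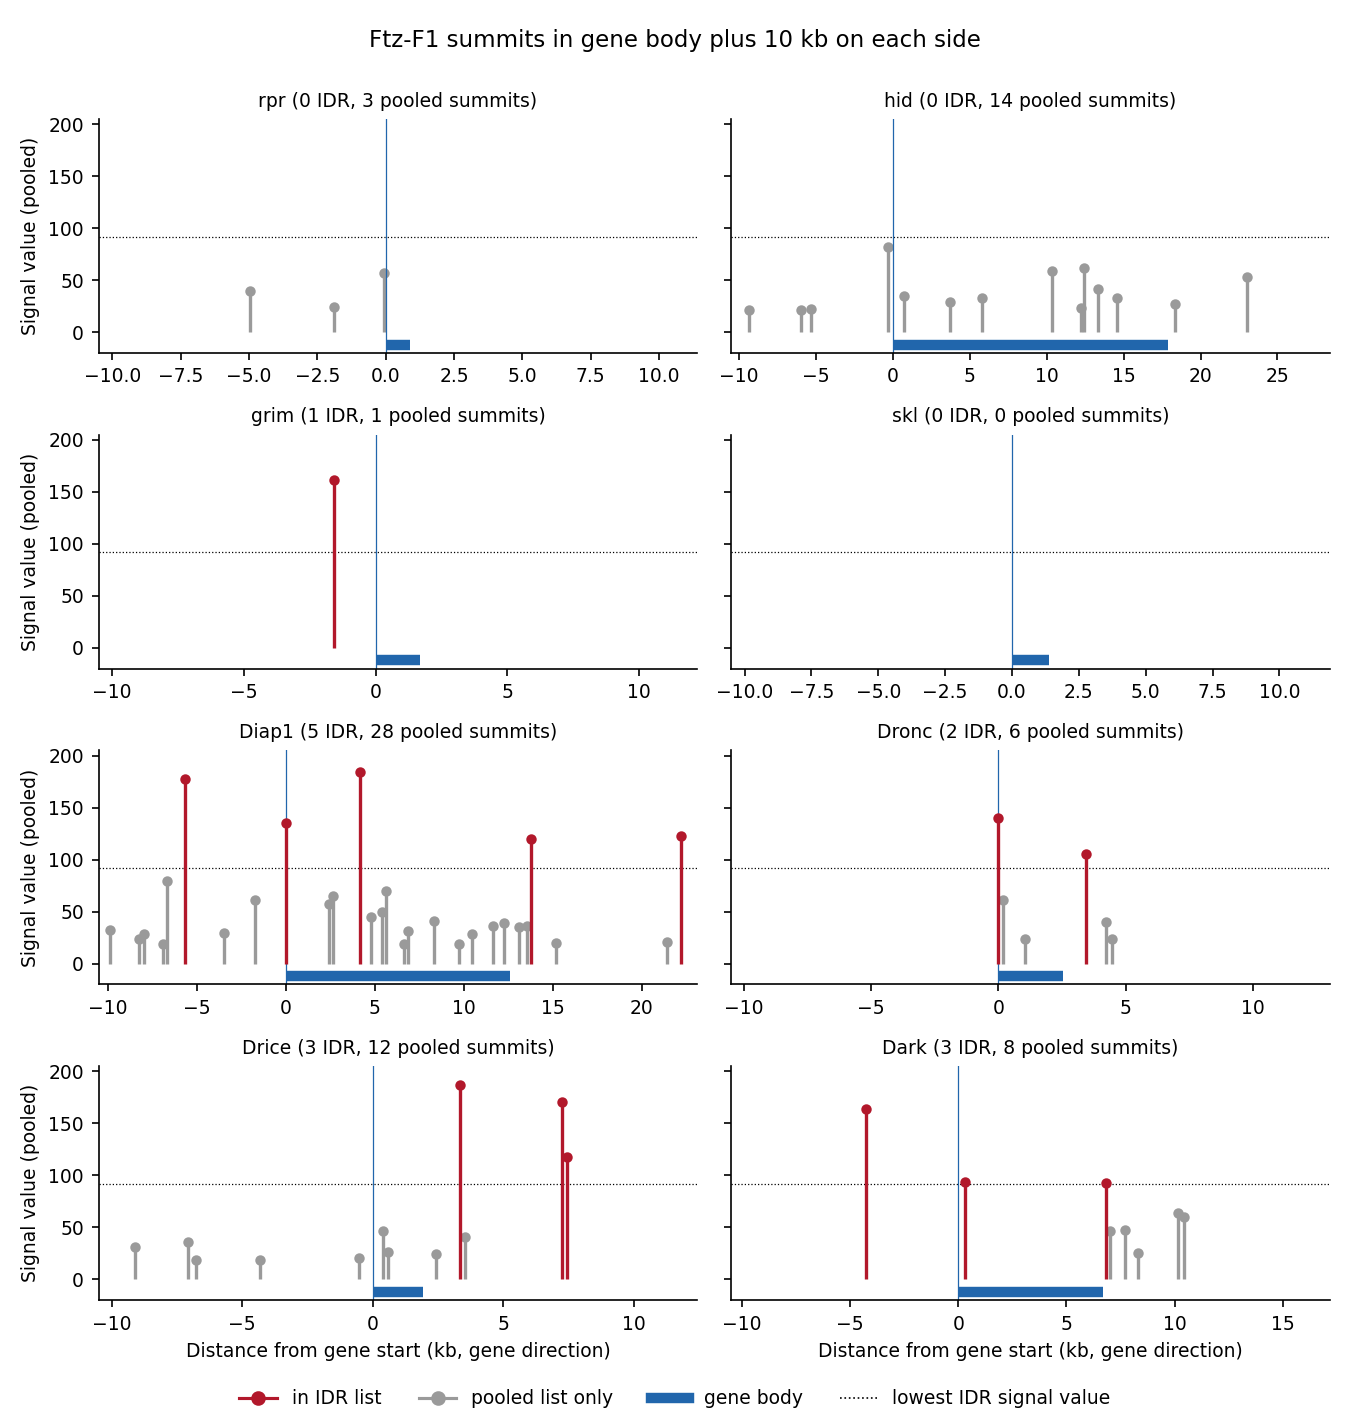
Signal values of all pooled summits (vertical axes) against distance from the gene's outermost start in kb, along the gene, for the 8 windows. Red stems are in the IDR list and grey stems are not. Blue bars are gene bodies and the dotted line is the lowest IDR signal value, 91.8. Diap1 and Dronc have red stems on the start, grim has its stem upstream, and those of Drice lie past the gene.

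Of the apoptosome, Dronc (FBgn0026404, 3L 9968479 to 9971002, plus strand), the initiator caspase, had its IDR summit 2 bp upstream of its start. The signal value was 140, rank 1712, with rank 1596 in replicate 1 (74.8) and 2208 in replicate 4 (67.2). An own-start summit this strong in the pooled list was found at 8.74% of protein-coding genes. The divergent gene CG6685 starts 160 bp from the summit, so the peak covers the space between both starts. The other IDR summit of the Dronc window lay past the gene in a coding exon, 149 bp from the CG6674 start, at 105, rank 3074. It ranked 6444 in replicate 1 (36.6) and 2018 in replicate 4 (70.6), the widest disagreement among the 14, and it was not among the strongest peaks of replicate 1 alone.

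Dark (FBgn0263864, 2R 17020027 to 17026703, plus strand), the adaptor that Dronc assembles on, had 3 IDR summits of unequal height. That with its own start nearest lay 306 bp into the gene, in an intron, at 93.2, rank 3875, close to the lowest IDR signal value. It ranked 3418 in replicate 1 (52.1) and 5703 in replicate 4 (38.9), and 18.1% of protein-coding genes had an own-start summit at least as strong. The tallest summit, 164, rank 1237, belonged by position to Ehbp1, whose start lay 115 bp away, against 4248 bp to Dark. The last, 92.7, rank 3890, lay 133 bp from asRNA:CR44390, just past the end of Dark. Among the strongest peaks of replicate 4 alone, as many as the IDR list holds, Dark kept 1 of its 3. No Ftz-F1 site occurred in the Dark window.

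Drice (FBgn0019972, 3R 29799658 to 29801584, plus strand), the effector caspase, showed the highest signal value of the 8 windows, 187, rank 964, but at another gene. That summit was 61 bp from the start of Etfb, which encodes a subunit of the electron transfer flavoprotein, and 3348 bp from the Drice start. The other IDR summits were 171, 100 bp from the ca start, and 118, 13 bp from the start of ncd, which encodes a kinesin motor of the meiotic spindle. A flank of 5 kb left the Drice window 1 IDR summit, that at Etfb. At its own start Drice had a pooled summit of 46.9, rank 10779, lying 376 bp into the gene, a level reached by 39.2% of protein-coding genes. Replicate 4 ranked that summit 6692 (35.2). The nearest summit in replicate 1 lay 149 bp from it, 525 bp into the gene, at rank 18094 (16.6). That replicate 1 summit was nearer to another pooled summit, of 26.5, 54 bp away. The 2 Ftz-F1 sites of the Drice window both fell in coding exons of ncd, 1481 and 1836 bp from the nearest IDR summit.

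Position therefore split the 14 summits. The member's own start was the nearest start for 5 of them, at grim, Diap1, Dronc and Dark, and another gene's start was nearer for 9. Over all protein-coding genes, 20.5% of the pairs of a gene and a summit in its window had that gene's start nearest, and 18.2% of the genes had at least 1 such summit, beside 4 of these 8. An IDR summit within 500 bp of the gene's own start was present at 3 of the 8 (Diap1, Dronc and Dark), beside 18.4% of all genes. Any gene's start lay within 500 bp of 10 of the 14 summits, beside 61.0% of all IDR summits. In the pooled list, 72 distinct summits fell in the windows and 7 of the 8 genes held at least 1, beside 87.4% of all genes. The members' median of 7.0 pooled summits was below the 8.0 of all genes.

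All 14 IDR summits had a partner within 200 bp in each replicate. The same share was not counted over all IDR summits. The ranks of the 14 ran from 625 to 6444 in replicate 1, with a median of 1537. In replicate 4 they ran from 1342 to 5703, with a median of 1926. The 5 summits with the member's own start nearest (at grim, Diap1, Dronc and Dark) all stood higher in replicate 1 than in replicate 4. So did the summits in Mbs and at Etfb, ca, Ehbp1 and asRNA:CR44390, so this direction was not particular to own-start summits. The summits that stood higher in replicate 4 were at CG5895, in Notum, at CG6674 and at ncd. Ranks were compared because the scales of the replicate lists are not stated. With 1 group and 2 replicates no spread beyond these ranks could be had.

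**Figure D5:**
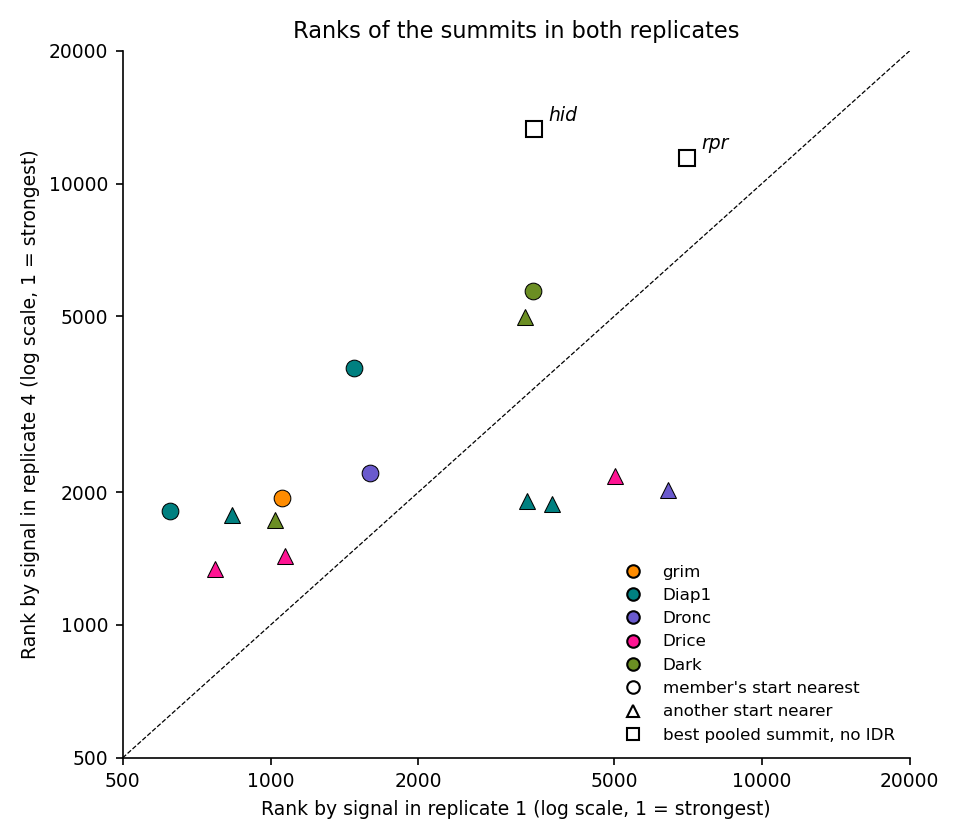
Rank by signal value in replicate 1 (horizontal) and replicate 4 (vertical), both on log scales with 1 the strongest, for the 14 IDR summits by gene, and for the strongest pooled summits of rpr and hid (open squares). Circles have the member's own start nearest and triangles another gene's. All 5 circles, both squares and some of the triangles lie above the dashed line of equal rank.

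Genes around the pathway were counted in the same way, and each count stands against 58.2% of all protein-coding genes with an IDR summit in the window and 18.4% with 1 at their own start. Of the 5 other caspases, Dcp-1, an effector caspase, had 4 IDR summits in its window and Dredd, an initiator caspase of immune signalling, had 1, and Strica, Damm and Decay had none. None of the 5 had an IDR summit at its own start. The strongest near Dcp-1 (334) was 151 bp from the AIMP3 start, and that near Dredd (136) was 15 bp from the RpL36 start. Of 19 other regulators of apoptosis, 13 (68.4%) held an IDR summit in the window and 7 (36.8%) at their own start. The strongest at a start were at Cyt-c-p, a cytochrome c gene (267, rank 412, 61 bp from the start), at chrb (258, rank 459) and scyl (155, rank 1394), which encode paralogous inhibitors of Tor signalling, and at HtrA2, a mitochondrial protease (159, rank 1322).

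Of 10 genes of engulfment, by which dead cells are cleared, 7 (70.0%) held an IDR summit in the window and 5 of the 10 at their own start, beside the 58.2% and 18.4% of all genes. These were led by the adaptor gene ced-6 (118), mbc (112), Rac1 (105), where the Acat2 start was nearer, and the receptor gene crq (98.9). The ced-6 summit ranked 2222 in replicate 1 and had no partner within 200 bp in replicate 4. Of 20 genes of autophagy, 18 (90.0%) held 1 in the window and 7 (35.0%) at their own start, led by Atg6 (298), whose neighbour Pisd starts at almost the same distance from the summit, Atg2 (195), Atg17 (162), where the Xe7 start was nearer (124 bp away), and Atg9 (134). All 10 regulators of the ecdysone response held an IDR summit in the window and 4 held it at their own start: ftz-f1 itself (1929, rank 6), with lncRNA:CR45939 starting at almost the same distance from the summit, the receptor gene Hr39 (330), Eip75B (250) and Eip74EF (197). Their windows were far longer, with a median of 75678 bp, than those of the other lists (22235 to 24115 bp). Of the 261 protein-coding genes with windows at least that median long, 64.0% held an IDR summit in the window and 29.9% at their own start. For 5 of the 10 regulators of the ecdysone response, an IDR summit in the window had the gene's own start nearest, beside 18.2% of all genes. For the others, every IDR summit in the window was nearer to another gene's start. EcR, which encodes the ecdysone receptor, held 10 summits in its window and none at its start.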

How the data were processed

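The authors deposited dm6 peak lists with a signal value and a −log10 q-value per peak, for replicate 1, replicate 4, both pooled, and after IDR thresholding; the q column stops at 4.18 and was not used for ranking. Each input list holds 30000 entries, per the files. The IDR list left out 26039 of the 29999 pooled peaks on the arms. Which control, aligner, peak caller and IDR threshold were used is not given in the sources used here, and depth is unknown. The dm3 lists were not used.

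Summits were placed on Ensembl release 115 (BDGP6.54) genes; RefSeq gave identical coordinates for 8 of 8 members. Ranks are by signal value, replicate partners lie within 200 bp, and sites were sought within 100 bp of summits. Pooled summits are never closer than 199 bp. No test was run, since there is 1 group; steps were tested on simulated data. The members and lists were chosen with earlier results of these data known. Named are the members, the nearest gene of each summit, and up to 4 genes per list by their strongest IDR summit at the start, then by any in the window; EcR, Strica, Damm, Decay and the genes near sub-threshold summits were named after their values were seen. Of the list symbols, 1 was not matched. Python 3.11.15, pandas 2.3.3, numpy 2.4.6 and matplotlib 3.10.9 were used. Alternatives covered the flank, peak strength, overlap, merging and each replicate.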

Additional observations from a re-analysis of the deposited data

How the results depend on the processing

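The number of genes with an IDR summit stayed at 5 of 8 with flanks of 2, 5 or 20 kb, with peaks above the list's median signal value, with overlap in place of the summit and with overlapping peaks merged. It was 4 when the member's start had to be the nearest and 3 when the summit had to lie within 500 bp of it. The 14 summits became 9 with a flank of 2 kb and 8 with peaks above the median signal value of 131, which by construction remove distant or weaker peaks; they were 10 and 18 with 5 and 20 kb, and 13 after merging. Leaving out a replicate, which meant taking as many of the strongest peaks of the other as the IDR list holds, gave 14 and 14 summits and 5 and 6 genes. Without replicate 4 hid gained 1 summit, that upstream of its start, and Dronc kept 1 of its 2; without replicate 1 Dark kept 1 of its 3. The cause was not tested. Of 74 other values, 59 moved by no more than 1.5 times and 15 moved further. The 59 include counts of 0 that stayed 0, as at rpr and skl, for which a limit in times says little. No paired analysis was possible because there is 1 group. The lists hold no read counts, so a missing peak is not an absence of binding, and q-values at their ceiling could not separate strong peaks.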
